A study of Mus musculus with 41 samples.

Results

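Krüppel-like factors are DNA-binding proteins with 3 zinc fingers near the carboxyl end that recognise CACCC and other GC-rich elements. Transcripts of 5 of them, Klf2, Klf3, Klf4, Klf5 and Klf9, are described here in E14 mouse embryonic stem cells as the cells left naive pluripotency. They were chosen by gene symbol, as 5 of the 55487 genes of the expression table, and all 5 passed the filter that left 16967 genes for testing. Cells of 2 Esrrb-depleted lines, KO2 and KO3, and Esrrb WT cells were sampled in 2iL, then kept for 1 day in plain N2B27 and sampled again at 1, 3 and 5 days of AloXR medium. N2B27 with 2iL contains the GSK3 inhibitor CHIR99021, the MEK inhibitor PD0325901 and LIF. AloXR contains activin A, the tankyrase inhibitor XAV and BMS439, and it carries the cells towards formative stem cells. The 41 libraries comprised 15 of KO2, 11 of KO3 and 15 of WT cells, with 3 libraries per line in 2iL and 4 at each AloXR time, except KO3 at day 3 and at day 5 with 2 each. All groups came from the E14 line, and the labels give neither the deleted part of Esrrb nor whether KO2 and KO3 are clones.

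In mouse embryonic stem cells Klf2, Klf4 and Klf5 belong to the network that holds naive pluripotency, together with Esrrb, Nanog and Tfcp2l1. LIF acts through STAT3 on Klf4, and block of MEK spares the Klf2 protein from phosphorylation by ERK and degradation. Klf5 is in addition needed for trophectoderm in the mouse blastocyst. Klf3 is mainly a repressor that recruits the corepressor CtBP, and Klf9 is a target of thyroid hormone and glucocorticoid receptors in several tissues.

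Levels are given in CPM, the reads of a gene scaled to the total assigned reads of the library, and each read is a tag near the 3′ end of a transcript. Libraries held 3424064 to 5736053 assigned reads. Esrrb itself stood at 52.0 to 56.7 CPM in KO2 libraries and 103 to 166 CPM in KO3 libraries, against 309 to 434 CPM in WT, in 2iL. It was thus lower in all 6 depleted libraries, and KO3 kept more Esrrb tags than KO2. At day 1 the order differed, with 1.64 to 5.52 CPM in KO2 and 26.1 to 41.4 CPM in KO3, against 12.1 to 17.7 CPM in WT. At day 3 Esrrb was called higher in the lines labelled as depleted (0.74 ± 0.25 on the log2 scale, limma adjusted p = 0.0265), at 0.15 in KO2 and 1.33 in KO3, a call lost under quantile normalization and edgeR. Since the deleted part is not given, these tags may lie outside it and then do not check it. Of the 2iL libraries, the third of every line was distinct: the formative gene Dnmt3b was at 107 CPM in that of KO2, 116 CPM in that of KO3 and 121 CPM in that of WT, and at most 59.9 CPM in the others. The naive marker Nanog averaged 483, 608 and 506 CPM in 2iL in KO2, KO3 and WT, and the formative marker Fgf5 was under 0.6 CPM in every 2iL library and at least 55.1 CPM in every AloXR library. Pou5f1, a core factor of all pluripotent cells, was read at only 9.98 to 17.6 CPM on average in the 12 groups; it has near-identical copies in the genome, so its reads may be split.

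The promoter-side sequences of 3 members are shown because they stand at the ends of the range of change on exit from 2iL in WT, with Klf2 and Klf4 at one end and Klf9 at the other. They are the 250 bases before the annotated start, from RefSeq for GRCm38.p6, which holds a window for 4 of the 5 members. The gene positions given further on are from GENCODE, whose starts differ: the last bases of the Klf2 window, with its CACCC, and of the Klf3 window lie inside those gene spans. They lie at chr8:72318812-72319061 (plus strand, Klf2), chr4:55532476-55532725 (minus strand, Klf4) and chr19:23140976-23141225 (plus strand, Klf9). Capitals mark the letters CACCC, the core of sites bound by these factors, and GGGCGG, the GC box of SP and KLF proteins, on either strand.
Klf2: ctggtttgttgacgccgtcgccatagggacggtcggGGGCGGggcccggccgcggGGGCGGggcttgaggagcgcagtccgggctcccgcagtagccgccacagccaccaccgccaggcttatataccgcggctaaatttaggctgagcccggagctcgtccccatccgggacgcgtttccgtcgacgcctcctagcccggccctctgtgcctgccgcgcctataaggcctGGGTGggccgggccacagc
Klf4: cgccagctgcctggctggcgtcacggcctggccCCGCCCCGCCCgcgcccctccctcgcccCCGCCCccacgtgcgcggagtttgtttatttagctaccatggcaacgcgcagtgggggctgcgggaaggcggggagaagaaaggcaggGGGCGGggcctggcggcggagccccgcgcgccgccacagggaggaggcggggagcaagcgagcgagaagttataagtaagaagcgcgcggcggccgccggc
Klf9: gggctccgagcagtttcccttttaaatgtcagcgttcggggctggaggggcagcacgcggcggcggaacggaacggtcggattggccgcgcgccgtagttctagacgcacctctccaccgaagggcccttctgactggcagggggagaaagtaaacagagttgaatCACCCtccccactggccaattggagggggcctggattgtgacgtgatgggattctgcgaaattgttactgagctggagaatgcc
The Klf2 window held 1 CACCC and 2 GC boxes, the Klf4 window 4 GC boxes and no CACCC, and the Klf9 window 1 CACCC and no GC box. The marked letters do not overlap between the 2 motifs in these windows. The Klf3 window held 5 CACCC and 6 GC boxes, with 1 base shared between the motifs. Among all 32851 windows of this length, 52.0% held CACCC and 32.7% held GGGCGG on either strand. The letters AAGGTCA, the core of the element bound by Esrrb, were in none of the 4 windows and in 4.08% of all windows. The letters TTCNNNGAA, the STAT element, were in the Klf9 window and in 7.02% of all windows.

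Klf4 was the one member called in 2iL with both lines averaged, and its later levels differed between the depleted lines. Klf4 (ENSMUSG00000003032) lies on the minus strand at chr4:55527143-55532466 (GRCm38, as are all gene positions) and encodes a reprogramming factor. In 2iL the values were 60.7, 68.2 and 78.0 CPM in KO2 libraries and 32.5, 32.7 and 70.4 CPM in KO3 libraries, against 299, 378 and 379.7 CPM in WT libraries. All 6 depleted libraries lay below all 3 WT libraries. At day 1 the values were 5.27, 2.30, 7.69 and 3.54 CPM in KO2 and 6.53, 6.34, 6.86 and 5.65 CPM in KO3, against 3.50, 3.74, 5.98 and 3.41 CPM in WT. The groups overlapped at day 1. At day 3 Klf4 stood at 4.34, 2.52, 3.96 and 4.65 CPM in KO2 libraries and 11.1 and 9.002 CPM in KO3 libraries, against 1.62, 1.09, 3.32 and 1.81 CPM in WT libraries. Both KO3 libraries and 3 of the 4 KO2 libraries lay above all WT libraries there. At day 5 it stood at 2.73, 1.42, 3.12 and 3.37 CPM in KO2 libraries and 16.9 and 11.5 CPM in KO3 libraries, against 3.05, 3.17, 3.18 and 2.62 CPM in WT libraries. KO2 overlapped WT at day 5 while both KO3 libraries lay above all others.

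By limma, with both lines averaged, the difference of Klf4 from WT was -2.68 ± 0.24 on the log2(CPM + 1) scale in 2iL (SE; adjusted p = 6.44e-12). The same difference was 0.31 ± 0.21 at day 1 (adjusted p = 0.34) and 1.35 ± 0.23 at day 3 (adjusted p = 1.2e-05). A call needed 3 things: an adjusted p (Benjamini-Hochberg, over all tested genes) under 0.05, a change of at least 1.5-fold, and the same direction in both lines. At day 5 the average difference was 0.87 ± 0.23 (adjusted p = 0.00274) but was not called, since KO2 stood at -0.16 ± 0.24 and KO3 at 1.91 ± 0.30. Klf4 was higher in KO3 than in KO2 at day 3 (1.20 ± 0.30, adjusted p = 0.00647) and at day 5 (2.07 ± 0.30, adjusted p = 2.46e-06), and the first of these calls was lost without the first KO3 library of day 3 (1.06). Relative to each line's own 2iL mean, 3.85% of Klf4 was left at day 5 in KO2 and 31.5% in KO3, against 0.854% in WT. These shares divide by unlike 2iL means, of 69.0 CPM in KO2, 45.2 CPM in KO3 and 352 CPM in WT. The day 5 means themselves were 2.66 CPM in KO2 and 14.2 CPM in KO3, against 3.01 CPM in WT. In bulk samples, fewer cells with a transcript and less of it per cell cannot be told apart. The p-values measure the spread between libraries, which the labels do not describe as separate cultures, and not the spread between lines.

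Primitive endoderm markers were also higher in KO3 than in KO2 at day 3 and day 5. Their sum over 12 genes was 1241 to 1316 CPM in KO3, 673 to 807 CPM in KO2 and 444 to 508 CPM in WT at day 3. At day 5 the sum was 1553 to 1702 CPM in KO3, 709 to 871 CPM in KO2 and 654 to 796 CPM in WT, and Sox7 was listed at 0 in all KO2 and WT libraries. Between KO3 and KO2, 7 of the 11 tested were called higher at day 3 and 11 of 11 at day 5, with none lower, where 5.58% and 9.02% of all genes were called higher. In 2iL the sums were 679 to 1035 CPM in KO3 and 488 to 562 CPM in KO2. There 1 of the 11 was called higher in KO3 and 1 lower, where 7.24% of all genes were called in either direction. Klf4 stood at -0.69 ± 0.28 in KO3 against KO2, not called. At day 1 the sums were 773 to 807 CPM in KO3 and 439 to 591 CPM in KO2. Of the 11, 7 were called higher and none lower, where 1390 of all 16967 genes were called higher and 15.0% in either direction. Klf4 stood at 0.46 ± 0.24 at day 1, not called. The part of these markers in the Klf4 result was not tested.

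Klf2 collapsed on exit from 2iL in every line and stayed higher at each AloXR time in the depleted lines. Klf2 (ENSMUSG00000055148) lies on the plus strand at chr8:72319033-72321656. In 2iL the values were 770.4, 703 and 587 CPM in KO2 libraries and 338, 411 and 459 CPM in KO3 libraries, against 374, 495 and 575 CPM in WT libraries. All KO2 libraries lay above all WT libraries, and KO3 overlapped WT. At day 1 the values were 18.6, 17.01, 21.4 and 17.7 CPM in KO2 and 10.01, 9.40, 8.36 and 7.68 CPM in KO3, against 5.78, 6.17, 6.60 and 4.69 CPM in WT. The 3 lines did not overlap at day 1. At day 3 Klf2 stood at 1.83, 4.04, 4.79 and 6.59 CPM in KO2 libraries and 9.46 and 8.76 CPM in KO3 libraries, against 2.03, 0.873, 2.85 and 2.71 CPM in WT libraries. Klf2 at day 5 stood at 3.19, 2.13, 4.68 and 5.49 CPM in KO2 libraries and 3.38 and 3.397 CPM in KO3 libraries, against 1.09, 1.78, 2.73 and 1.53 CPM in WT libraries. On both days 1 KO2 library lay within the WT range and the other depleted libraries lay above it.

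The difference of Klf2 from WT by limma was 0.14 ± 0.22 in 2iL (adjusted p = 0.728), with the lines on opposite sides (0.53 in KO2 and -0.25 in KO3). It was 1.04 ± 0.19 at day 1 (adjusted p = 8.03e-05), 1.24 ± 0.21 at day 3 (adjusted p = 1.09e-05) and 0.74 ± 0.21 at day 5 (adjusted p = 0.00564). KO3 alone was not called at day 1 (0.54) or day 5 (0.69). These folds rest on few reads: the lowest Klf2 value in any library was 4 reads, and a pseudocount of 5 CPM took the day 5 difference to 0.34. The lines also changed places. KO3 stood below KO2 at day 1 (-0.998 ± 0.22, adjusted p = 8.23e-04) and above it at day 3 (1.01 ± 0.28, adjusted p = 0.0127). The second of these calls was lost without the first KO2 library of day 3 (0.74) and without either KO3 library of that day (0.96 and 1.06). The nearest genes with at least 10 CPM, 20 on each side of Klf2, were themselves higher in KO3 than in KO2, by a median of 0.31 in 2iL, 0.40 at day 1, 0.30 at day 3 and 0.33 at day 5. With the neighbours' median subtracted, the call at day 5 against WT (0.46) and that between the lines at day 3 (0.71) were lost, while KO3 was called below KO2 in 2iL (-1.08).

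Klf5 was higher in both depleted lines at day 3 and day 5, and in WT it fell until day 3. Klf5 (ENSMUSG00000005148) lies on the plus strand at chr14:99298691-99315036. In 2iL the values were 637, 568 and 550.1 CPM in KO2 libraries and 807, 821 and 704 CPM in KO3 libraries, against 884, 1017 and 800.3 CPM in WT libraries. KO2 lay below WT, and KO3 overlapped it. At day 1 the values were 77.3, 82.3, 71.0 and 53.7 CPM in KO2 and 208, 199.7, 175 and 202 CPM in KO3, against 99.2, 107, 154 and 126 CPM in WT. WT thus lay between KO2 and KO3 with no overlap. At day 3 Klf5 stood at 87.5, 78.5, 60.4 and 53.1 CPM in KO2 libraries and 142 and 153 CPM in KO3 libraries, against 16.8, 18.99, 19.2 and 17.4 CPM in WT libraries. Klf5 at day 5 stood at 70.4, 94.9, 98.2 and 135 CPM in KO2 libraries and 163 and 127 CPM in KO3 libraries, against 30.8, 35.1, 39.8 and 39.5 CPM in WT libraries. All 6 depleted libraries lay above all 4 WT libraries on both days.

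The Klf5 difference from WT by limma was -0.41 ± 0.15 in 2iL (adjusted p = 0.0394), which is under 1.5-fold. At day 1 it was -0.03 ± 0.13 (adjusted p = 0.915), where KO2 stood at -0.76 ± 0.15 and KO3 at 0.71 ± 0.15. It reached 2.41 ± 0.14 at day 3 (adjusted p = 1.26e-17) and 1.68 ± 0.14 at day 5 (adjusted p = 1.04e-12). The day 3 mean was 69.9 ± 15.8 CPM in KO2 (SD, n = 4) and 148 ± 7.62 CPM in KO3 (SD, n = 2), against 18.1 ± 1.18 CPM in WT (SD, n = 4). KO3 was also above KO2 at day 1 (1.47 ± 0.15, adjusted p = 4.79e-10) and day 3 (1.10 ± 0.18, adjusted p = 6.76e-05).

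Trophoblast markers, like Klf5, were higher in the depleted lines at day 3. The summed level of 13 such genes was 461 to 749 CPM in KO2 and 612 to 671 CPM in KO3, against 152 to 181 CPM in WT, and 10 of 12 tested were called higher with none lower, where 10.8% of all genes were called higher. The sums at day 1 were 155 to 213 CPM in KO2 and 152 to 194 CPM in KO3, against 61.9 to 77.9 CPM in WT. At day 5 the sums were 302 to 364 CPM in KO2 and 577 to 583 CPM in KO3, against 327 to 358 CPM in WT. The sum in KO2 overlapped WT at day 5. By gene, 7 of 12 tested were called higher there and none lower, where 8.89% of all genes were called higher. The largest calls of the list at day 3 were Tfap2c (3.86 ± 0.35), Krt19 (2.87 ± 0.20) and Plac1 (2.54 ± 0.29). Of the defining factors, Elf5 and Cdx2 were listed at 0 in all WT libraries at day 3. Cdx2 averaged 0.28 CPM in KO2 and 1.31 CPM in KO3 at day 3, within a few reads of 0. Klf2, Klf3 and Klf4 were higher at day 3 in the same lines, and the part of such cells in these levels was not tested.

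Klf3 fell less on exit, least of all in KO3. Klf3 (ENSMUSG00000029178) lies on the plus strand at chr5:64803388-64832901. In 2iL the values were 139, 119 and 112 CPM in KO2 libraries and 86.1, 108 and 114 CPM in KO3 libraries, against 95.6, 159 and 138 CPM in WT libraries. The lines overlapped. At day 1 the values were 55.7, 59.3, 52.6 and 34.1 CPM in KO2 and 90.98, 105, 78.8 and 85.1 CPM in KO3, against 35.5, 46.0, 45.8 and 44.8 CPM in WT. KO3 lay above both other lines, whereas KO2 had 3 libraries above and 1 below all WT libraries. At day 3 Klf3 stood at 44.3, 62.6, 45.4 and 63.0 CPM in KO2 libraries and 59.4 and 60.3 CPM in KO3 libraries, against 33.7, 25.3, 34.2 and 44.0 CPM in WT libraries. Klf3 at day 5 stood at 46.2, 43.3, 49.0 and 53.9 CPM in KO2 libraries and 64.7 and 84.5 CPM in KO3 libraries, against 37.1, 38.4, 41.8 and 42.8 CPM in WT libraries. All depleted libraries lay above all WT libraries on both days.

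By limma the Klf3 difference from WT was -0.20 ± 0.16 in 2iL (adjusted p = 0.419), 0.62 ± 0.14 at day 1 (adjusted p = 5.71e-04) and 0.73 ± 0.15 at day 3 (adjusted p = 1.68e-04). At day 5 it was 0.56 ± 0.15 (adjusted p = 0.00251), just under 1.5-fold, which is 0.585 on the log2 scale. The day 1 call was lost without the first WT library (0.54) or the second KO2 library (0.58) of that day, and in KO2 alone (0.20). KO3 was above KO2 at day 1 (0.85 ± 0.16, adjusted p = 7.08e-05) and day 5 (0.62 ± 0.19, adjusted p = 0.0207). The day 5 call was lost without the second KO2 library (0.57) or the second KO3 library (0.43) of that day, and under quantile normalization (0.56), TMM scaling (0.58) and a pseudocount of 5 CPM (0.58). The span of Klf3 overlaps C230096K16Rik on the same strand, read at 1.496 to 8.14 CPM, and Gm20033 on the opposite strand, read at 0.23 to 3.78 CPM.

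Relative to 2iL, Klf9 changed least of the 5 in KO2 and WT, though in KO3 Klf3 kept more of its 2iL level at each AloXR time. Its depleted libraries lay apart from WT at day 5, by under 1.5-fold. Klf9 (ENSMUSG00000033863) lies on the plus strand at chr19:23141226-23168134. In 2iL the values were 511, 457 and 415 CPM in KO2 libraries and 449.6, 531 and 455 CPM in KO3 libraries, against 345, 521 and 476 CPM in WT libraries. At day 1 the values were 313, 282, 299 and 243 CPM in KO2 and 362, 353, 343 and 375 CPM in KO3, against 299, 289, 361 and 366 CPM in WT. The depleted lines overlapped WT at both times. At day 3 Klf9 stood at 246, 241, 233 and 226 CPM in KO2 libraries and 222 and 266 CPM in KO3 libraries, against 236, 218, 212 and 209 CPM in WT libraries. Klf9 at day 5 stood at 190.4, 237, 193 and 215 CPM in KO2 libraries and 208 and 198 CPM in KO3 libraries, against 276, 283, 321 and 316 CPM in WT libraries. The lines overlapped at day 3, and at day 5 all 6 depleted libraries lay below all WT libraries. By limma the difference was 0.09 ± 0.10 in 2iL (adjusted p = 0.626), -0.04 ± 0.09 at day 1 (adjusted p = 0.818) and 0.13 ± 0.10 at day 3 (adjusted p = 0.344). At day 5 it was -0.54 ± 0.10 (adjusted p = 3.48e-05), a difference under 1.5-fold and so not called.

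**Figure D1:**
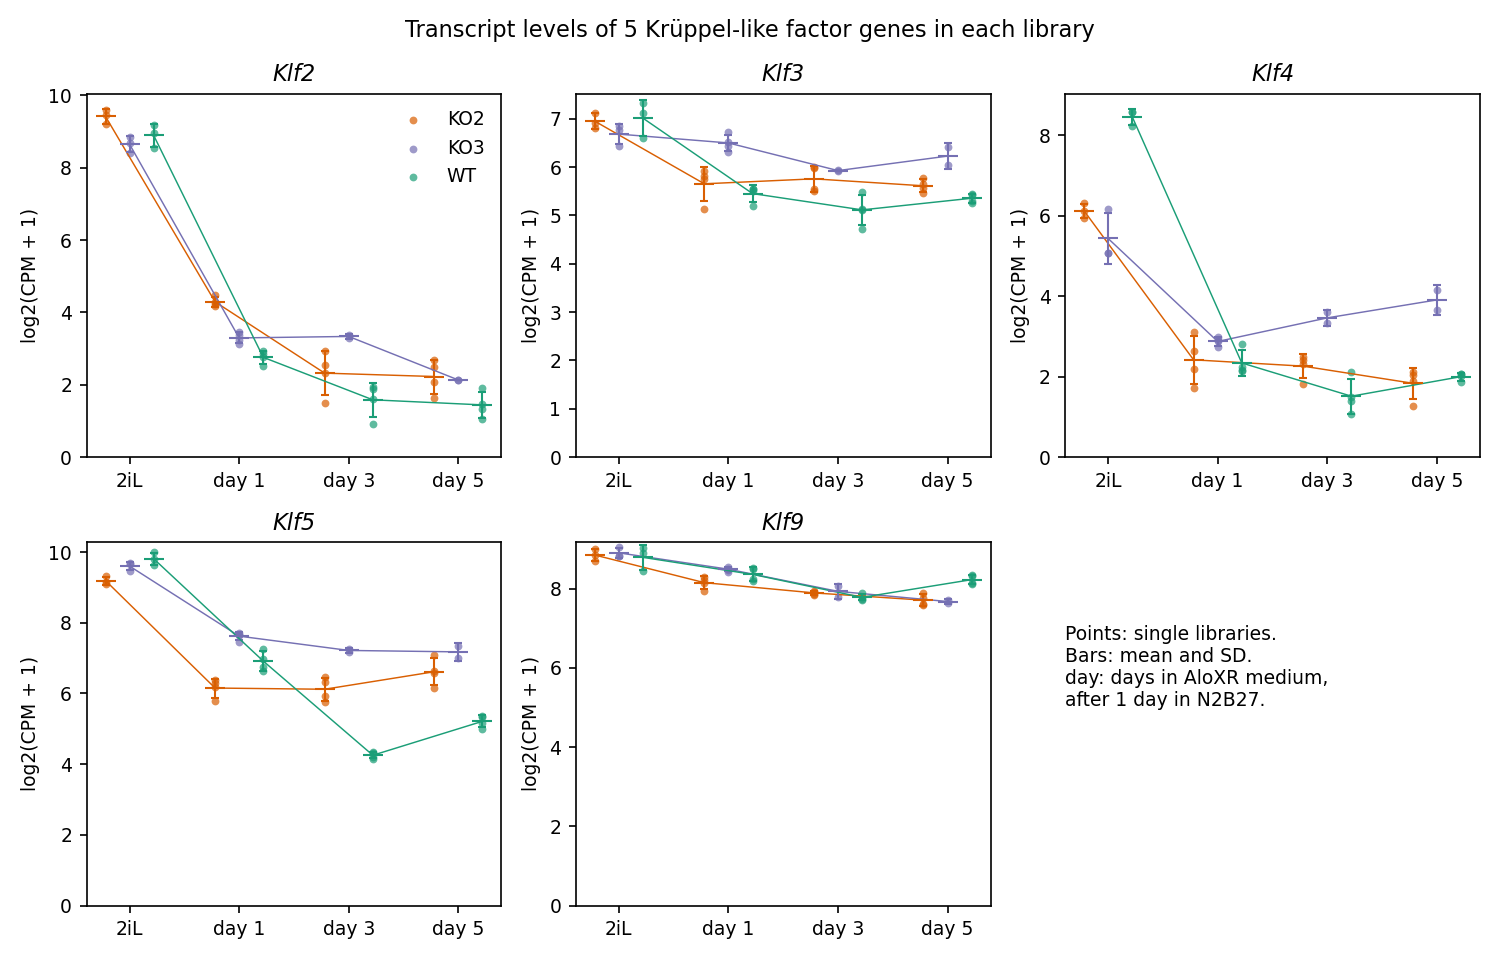
Level of each gene in every library, as log2(CPM + 1) on the vertical axis, against medium and day on the horizontal axis, with KO2, KO3 and WT side by side. Points are libraries and bars are means with SD; Klf4 in 2iL and Klf5 at day 3 show the widest gaps between WT and both depleted lines, and Klf9 the flattest course in KO2 and WT.

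**Figure D2:**
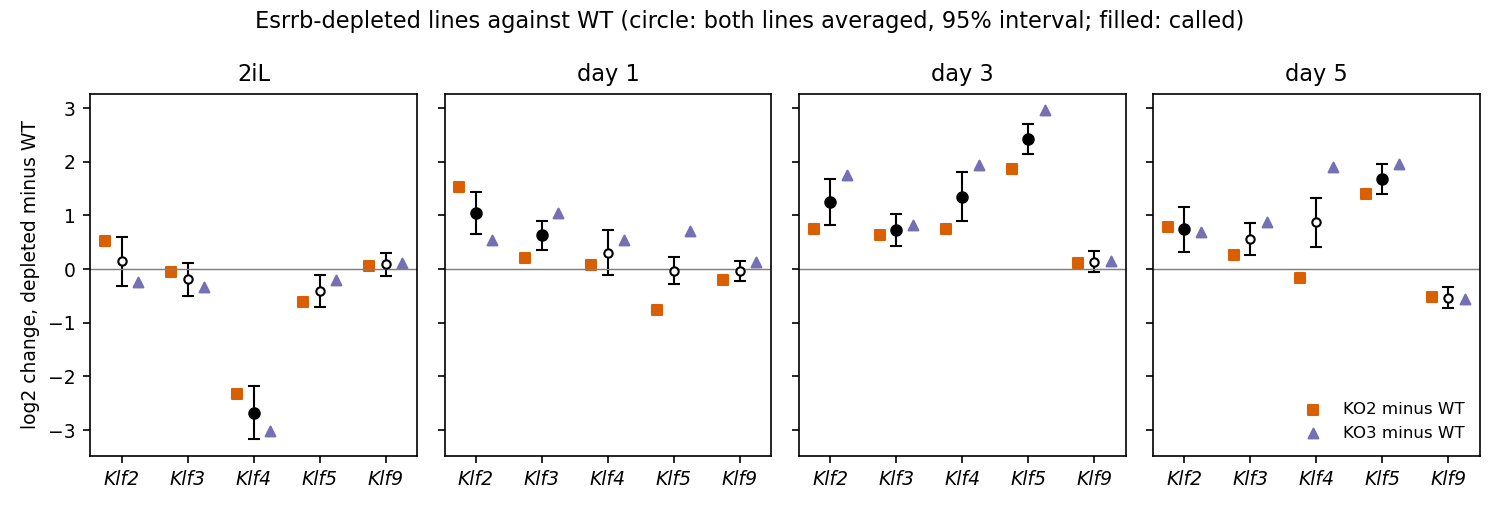
Difference from WT (log2, vertical axis) of each gene at each time. Circles are both depleted lines averaged with 95% intervals, filled where called, and squares and triangles are KO2 and KO3 alone; KO2 and KO3 lie on opposite sides of 0 for Klf5 at day 1 (-0.76 and 0.71) and Klf4 at day 5 (-0.16 and 1.91), among others.

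Counted together, 1 of the 5 genes was called lower in the depleted lines in 2iL (Klf4), where 7.60% of all tested genes were called lower. At day 1, 2 of 5 were called higher (Klf2 and Klf3), against 6.31% of all genes. At day 3, 4 of 5 were called higher (Klf2, Klf3, Klf4 and Klf5), against 10.8% of all genes. At day 5, 2 of 5 were called higher (Klf2 and Klf5), against 8.89% of all genes. The members were chosen with earlier results of these data known, so their share is a description. The share of all calls that were higher depends on the scaling at day 3, at 62.4% as deposited and 50.7% after quantile normalization, while the 4 calls of the members held under both.

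The steps of the course were then taken for each genotype. From 2iL to day 1, 4 of 5 were called lower in the depleted lines, against 17.4% of all genes. The changes were -5.24 ± 0.17 for Klf2, -3.13 ± 0.19 for Klf4, -2.51 ± 0.11 for Klf5 and -0.74 ± 0.12 for Klf3 (log2 ± SE; limma, largest adjusted p = 1.13e-06). For Klf3, KO2 stood at -1.30 ± 0.17 and KO3 at -0.18 ± 0.17. In WT these same 4 were called lower, against 18.7% of all genes, at -6.13 ± 0.24 for Klf2, -6.12 ± 0.26 for Klf4, -2.89 ± 0.16 for Klf5 and -1.56 ± 0.17 for Klf3 (largest adjusted p = 1.62e-10). Klf9 stood at -0.56 ± 0.08 in the depleted lines and -0.43 ± 0.11 in WT over this step, under 1.5-fold in both.

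From day 1 to day 3, none of the 5 was called in the depleted lines by limma, against 12.6% of all genes, with 2 of 5 at an unadjusted p under 0.05 and 1 of 5 called by edgeR. Klf5 stood at -0.22 ± 0.12 there. Klf2 reached -0.97 ± 0.18 on average but was -1.97 ± 0.22 in KO2 and 0.04 ± 0.28 in KO3. In WT, 3 of 5 were called lower over this step, against 8.91% of all genes. The changes in WT were -2.66 ± 0.15 for Klf5, -1.17 ± 0.22 for Klf2 and -0.83 ± 0.24 for Klf4 (log2 ± SE). Klf9 stood at -0.58 ± 0.10 in WT, just under 1.5-fold, and was called under TMM scaling (-0.61) and edgeR (-0.62). By edgeR 4 of 5 were called in this WT step. The Klf4 call was lost without the third WT library of day 1 (-0.67) or the second of day 3 (-0.68), and with a pseudocount of 5 CPM (-0.40).

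From day 3 to day 5, 1 of 5 was called lower in the depleted lines, Klf2 (-0.65 ± 0.19, adjusted p = 0.0418), against 1.89% of all genes. That call was lost on leaving out any 1 of 9 of the 12 libraries in it, and KO2 alone stood at -0.09 ± 0.22. In WT, 1 of 5 was called higher, Klf5 (0.96 ± 0.15, adjusted p = 6.01e-06), against 9.96% of all genes. Of all calls in this WT step, 71.5% were higher as deposited and 51.5% after quantile normalization, which kept the Klf5 call. Klf9 stood at -0.22 ± 0.09 in the depleted lines and 0.45 ± 0.10 in WT.

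The differences between these steps, depleted minus WT, were tested in the same fit. From 2iL to day 1, 3 of 5 differed upwards, against 4.79% of all genes. These were Klf4 (2.98 ± 0.32, adjusted p = 3.67e-09), Klf2 (0.90 ± 0.30, adjusted p = 0.0439) and Klf3 (0.82 ± 0.21, adjusted p = 0.00586), each with a shallower fall in the depleted lines. The Klf4 level at the start of the step was already lower in the depleted lines. The Klf2 difference lost its call on leaving out any 1 of 13 of the 21 libraries, over a range of 0.76 to 1.07, and under 6 other settings, among them quantile normalization (0.82) and a pseudocount of 0.5 CPM (0.95). The Klf3 difference lost it without the second WT library of 2iL (0.66) and with KO2 alone (0.26).

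From day 1 to day 3, 2 of 5 steps differed upwards, against 2.78% of all genes. The Klf5 step differed by 2.44 ± 0.19 (adjusted p = 1.17e-12), as 2.63 ± 0.21 in KO2 and 2.26 ± 0.24 in KO3. The Klf4 step differed by 1.04 ± 0.31 (adjusted p = 0.0423). It lost its call on leaving out any 1 of 14 of the 22 libraries, over a range of 0.89 to 1.24. The call was also lost under quantile normalization (0.95), edgeR (1.27), a pseudocount of 5 CPM (0.55) and no filter on low values (1.04). With KO2 alone it was not called (0.67 ± 0.35), and with KO3 alone it was (1.41 ± 0.39). From day 3 to day 5, 2 of 5 differed downwards, against 4.44% of all genes. These were Klf5 (-0.73 ± 0.20, adjusted p = 0.016), where WT rose, and Klf9 (-0.67 ± 0.14, adjusted p = 0.00161). The Klf5 call was lost without the second KO3 library of day 5 (-0.64) and with KO2 alone (-0.46), and the Klf9 call with the neighbours' median subtracted (-0.54). Of all calls here, 26.2% were higher as deposited and 43.9% after quantile normalization.

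**Figure D3:**
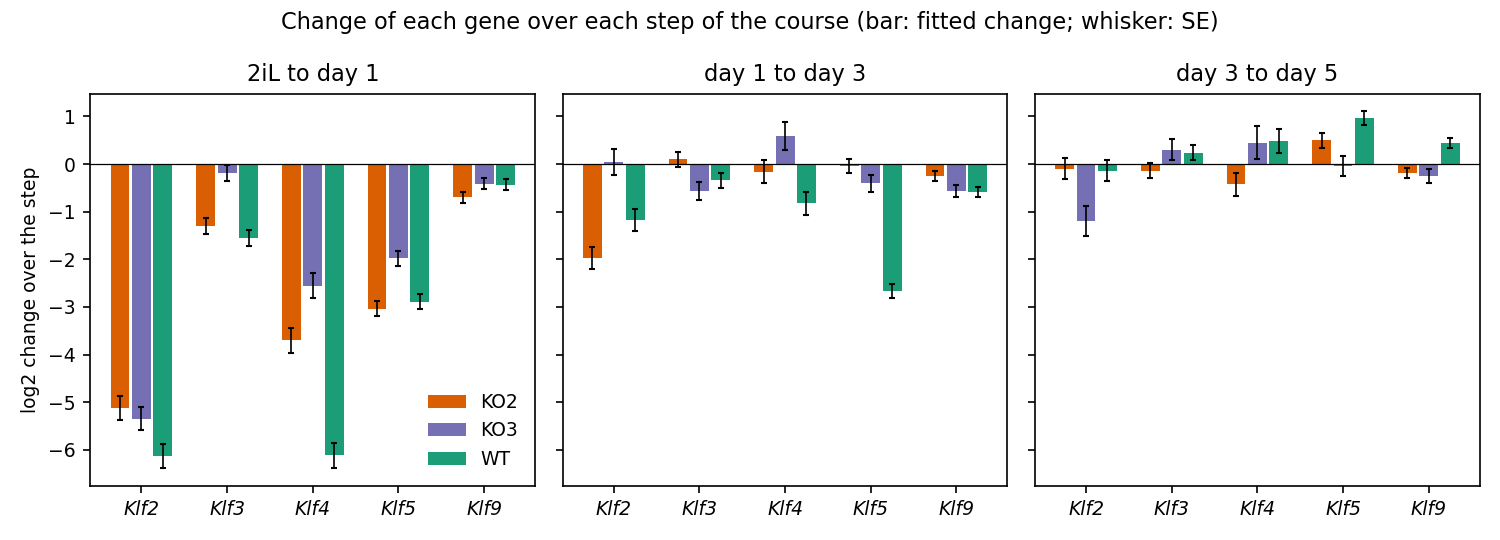
Change of each gene over each step of the course (log2, vertical axis), with bars for KO2, KO3 and WT and whiskers for the SE. From day 1 to day 3, Klf5 stays near 0 in KO2 (-0.03) and falls in WT (-2.66); Klf2 and Klf4 fall deepest from 2iL to day 1.

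The 2 depleted lines were also set against each other. In 2iL none of the 5 was called between KO3 and KO2 by limma, against 7.24% of all genes, with 3 of 5 at an unadjusted p under 0.05 and 1 of 5 called by edgeR. Without the third 2iL library of each line, Klf2 (-0.98) and Klf4 (-0.96) were called lower in KO3. At day 1, 3 of 5 were called, against 15.0% of all genes, with Klf3 and Klf5 higher and Klf2 lower in KO3. At day 3, 3 of 5 were called higher in KO3 (Klf2, Klf4 and Klf5), against 5.58% of all genes. At day 5, 2 of 5 were called higher in KO3 (Klf3 and Klf4), against 9.02% of all genes. The share of all calls that were higher in KO3 was 34.5% in 2iL, 72.5% at day 3 and 64.1% at day 5 as deposited, and 46.1%, 55.8% and 51.3% at these times after quantile normalization. Klf9 was called between the lines at no time, and its widest difference was 0.34 ± 0.10 at day 1 (adjusted p = 0.0141).

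Ranked by group mean over the 12 groups of line and time, each gene gave 11 pairs of neighbours. The library ranges were apart in 5 pairs for Klf2, 5 for Klf5, 4 for Klf4, 1 for Klf3 and 0 for Klf9. The same count was not made over all genes, so these numbers only describe the 5 genes. For Klf5 the lowest groups were WT at day 3 and WT at day 5, each apart from its upper neighbour, and for Klf4 the highest AloXR groups were KO3 at day 5 and day 3. The 5 genes' group means, as log2(CPM + 1), correlated with each other at Pearson's r between 0.71 (Klf4 with Klf9) and 0.94 (Klf3 with Klf5) over the 12 groups, which share the fall after 2iL.

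The genes whose group means followed each member most closely were taken from 10245 genes, by Pearson's r over the 12 groups and as a description only. For Klf2 these were Tnip2 (0.98), Mapt (0.98) and Calcoco2 (0.98), and for Klf4 Nid1 (0.99), Ulk1 (0.98) and Serpinb6c (0.98). Nid1, a basement membrane gene, averaged 23.5 CPM in KO2 and 26.1 CPM in KO3, against 118 CPM in WT, in 2iL. For Klf5 they were Adrb3 (0.98), Tead4 (0.96) and Fn1 (0.96). Tead4, a trophectoderm factor, averaged 1.45 CPM in KO2 and 5.27 CPM in KO3, against 0.548 CPM in WT, at day 3. For Klf3 they were Trmt13 (0.98), Arhgef12 (0.97) and Hoxc13 (0.95), and for Klf9 Ttc39b (0.97), Atxn3 (0.96) and Poli (0.96).

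Of the other 12 KLF genes, 2 were called in 2iL, 2 at day 1, 4 at day 3 and 3 at day 5, where 15.7%, 11.8%, 17.3% and 20.6% of all genes were called in either direction. In 2iL 1 was higher, Klf7 (0.88 ± 0.18), and 1 lower, Klf12 (-0.89 ± 0.26), in the depleted lines. At day 1, Klf7 (0.66 ± 0.16) and Klf6 (0.64 ± 0.10) were higher and none was lower. Klf6 there stood at 0.07 in KO2 and 1.21 in KO3, and Klf7 at 0.29 in KO2 and 1.03 in KO3. At day 3, Klf6 (1.03 ± 0.11), Klf7 (0.82 ± 0.17) and Klf11 (0.60 ± 0.22) were higher and Klf15 (-0.77 ± 0.24) was lower. At day 5, Klf7 (0.78 ± 0.17) was higher, and Klf15 (-1.12 ± 0.24) and Klf13 (-0.64 ± 0.13) were lower. The calls of Klf11 under quantile normalization and of Klf13 under TMM scaling were lost. The median difference of the 12 was 0.11 in 2iL, 0.02 at day 1, 0.23 at day 3 and -0.06 at day 5, beside 0.04, 0.02, 0.03 and 0 for all genes.

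Levels of these relatives ran from near 0 to 274 CPM, the mean of Klf6 in KO3 at day 5. Klf6 averaged 165 CPM in KO2 and 244 CPM in KO3, against 97.9 CPM in WT, at day 3. Klf7 averaged 50.2 CPM in KO2 and 68.4 CPM in KO3, against 31.5 CPM in WT, in 2iL, and 116 CPM in KO2 and 195 CPM in KO3, against 94.8 CPM in WT, at day 1. In WT it rose over that step (1.57 ± 0.20, adjusted p = 1.8e-08), while Klf2, Klf4 and Klf5 fell. Klf15 averaged 9.83 CPM in KO2 and 9.94 CPM in KO3, against 22.6 CPM in WT, at day 5. Klf8, Klf10, Klf13 and Klf16 reached 60.1, 95.02, 151 and 45.0 CPM in their highest group, Klf11 11.3 CPM and Klf12 10.4 CPM.

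Of 9 SP genes, close relatives that bind the GC box, 7 were tested. Sp5, a Wnt target, averaged 128 CPM in KO2 and 92.8 CPM in KO3, against 39.5 CPM in WT, in 2iL (1.54 ± 0.32, adjusted p = 2.81e-04), and under 1 CPM in every AloXR group. At day 3, Sp8 (-1.48 ± 0.33) and Sp6 (-0.74 ± 0.20) were lower in the depleted lines, and at day 5 Sp6 (-1.22 ± 0.20). No SP gene was called at day 1 by limma or edgeR. The broadly expressed Sp1, Sp2, Sp3 and Sp4, which reached 259.96, 52.0, 88.5 and 18.8 CPM in their highest group, were called against WT at no time by limma, and Sp4 was called higher in 2iL by edgeR.

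**Figure D4:**
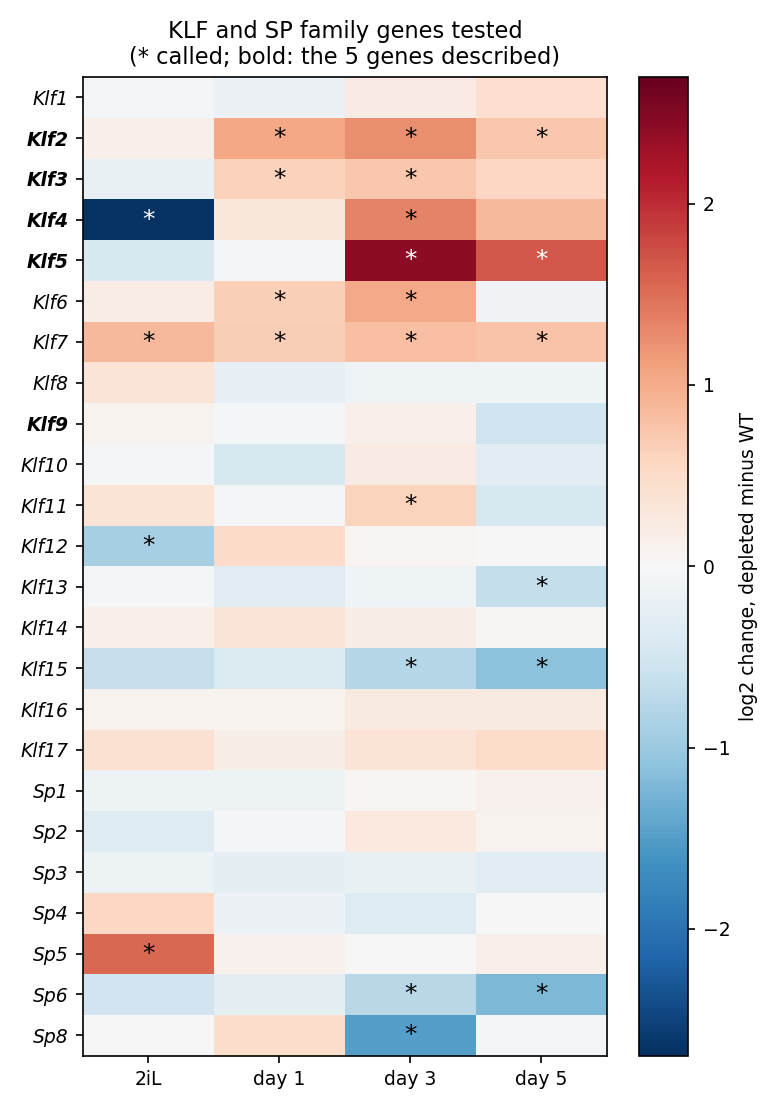
Difference of the depleted lines from WT (log2, colour scale) for every tested KLF and SP gene (rows) in 2iL and at day 1, 3 and 5 (columns), with stars where called and the 5 genes described in bold. Klf5 at day 3 and Klf4 in 2iL carry the deepest colours, and Klf7 is starred at all 4 times.

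Genes that act on or with the members were counted in the same comparisons. The lists were drawn up with earlier results of these data known. Over all tested genes, 1376 were called higher and 1290 lower in the depleted lines in 2iL, 1071 and 934 at day 1, 1830 and 1101 at day 3, and 1508 and 1983 at day 5. Of 9 cofactors and ubiquitin ligases of KLF proteins, such as the Klf3 partners Ctbp1 and Ctbp2, none was called in 2iL, at day 1 or at day 3 by limma or edgeR. At day 5, 1 was lower, Wwp1 (-0.64 ± 0.12), a ligase of Klf2 and Klf5, and edgeR in addition called Ctbp2 higher.

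Of 11 genes of the LIF and STAT3 pathway, 5 were lower and none higher in 2iL, with a median difference of -0.66. They included Socs3 (-1.57 ± 0.30), a feedback inhibitor of the pathway, and Il6st (-0.92 ± 0.19), the shared receptor chain. At day 1, 1 was higher, Junb (0.61 ± 0.21), and 1 lower, the LIF receptor gene Lifr (-1.92 ± 0.27). Junb there stood at 0.12 in KO2 and 1.10 in KO3. At day 3, 5 were higher and none lower, with a median of 0.46, led by Junb (2.04 ± 0.23). At day 5, Lifr (1.68 ± 0.30) and Junb (1.21 ± 0.23) were higher, and Socs3 (-0.73 ± 0.28) was lower, a call lost under quantile, TMM and edgeR scaling.

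Of 13 naive network partners, 5 were lower and 1 higher in 2iL, with a median of -0.49. Nr0b1 (-3.37 ± 0.30), Esrrb (-2.11 ± 0.27) and Sox2 (-1.44 ± 0.24) fell most there. At day 1, 3 were higher and 2 lower, with a median of -0.19. At day 3, 5 were higher and 1 lower, with a median of 0.46, led by Dppa3 (2.19 ± 0.38) and Zfp42 (1.75 ± 0.25) and including Esrrb itself (0.74 ± 0.25). At day 5, 3 were higher and 1 lower, Nanog (-1.36 ± 0.16), with a median of 0.27.

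Of 9 ERK response genes, 1 was lower in 2iL, Spry2 (-1.47 ± 0.23), and 1 higher at day 1, Fosl1 (1.32 ± 0.28). At day 3, 8 of 9 were higher, with a median of 1.28, and at day 5 8 of 9, with a median of 2.05. Spry4 (2.98 ± 0.26) and Dusp6 (2.58 ± 0.20), feedback inhibitors of the cascade, were among the highest at day 5. Of 9 tested hormone receptor and response genes, those of the receptors that act on Klf9, 1 was lower in 2iL and none called at day 1. Thra, a thyroid hormone receptor, was lower in 2iL (-0.65 ± 0.15), at day 3 (-0.63 ± 0.14) and at day 5 (-0.90 ± 0.14). The glucocorticoid-induced kinase gene Sgk1 was higher at day 3 (1.43 ± 0.36) and day 5 (3.28 ± 0.36), and Per1 was lower at day 5 (-0.76 ± 0.19).

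Of 8 formative genes, 1 was higher and 2 lower in 2iL, none higher and 3 lower at day 1, none higher and 2 lower at day 3, and 2 higher and 1 lower at day 5. Otx2 was lower at all 4 times, at -1.68 ± 0.20 in 2iL, -1.42 ± 0.17 at day 1, -1.0 ± 0.19 at day 3 and -0.98 ± 0.19 at day 5. Markers of other cells moved beside the members. Primitive endoderm markers were higher for 4, 7, 9 and 7 of 11 tested in 2iL and at day 1, 3 and 5. The largest calls at day 5 rested mostly on KO3. Col4a2 stood at 0.56 in KO2 and 3.37 in KO3, Col4a1 at 0.42 and 3.18, and Sox17 at 0.12 and 3.09. The summed level of the list in KO2 overlapped WT at day 5. In 2iL, Dab2 (2.26 ± 0.39) and Col4a1 (2.14 ± 0.17) rose most, and 2 were lower, Lama1 (-3.52 ± 0.30) and Gata4 (-1.35 ± 0.25). Trophoblast markers were higher for 5, 7, 10 and 7 of 12 in 2iL and at day 1, 3 and 5, led by Krt19 in 2iL (3.62 ± 0.22). In 2iL 1 was lower, Tfap2a (-0.80 ± 0.28). Fibroblast and feeder markers were higher for 2, 3, 4 and 0 of 7, led by Mmp2 in 2iL (1.71 ± 0.28). They were lower for 1 each at day 1 (Dcn, -1.47 ± 0.35), day 3 and day 5 (Thy1, -0.81 ± 0.23 and -1.14 ± 0.23). Two-cell-like markers were higher for 5, 6, 5 and 0 of 6 and lower for none, led by Usp17la in 2iL (2.50 ± 0.30). Their levels were low: the sum of 7 genes in 2iL was 19.9 to 36.8 CPM in KO2 and 3.34 to 8.37 CPM in KO3. In WT it was 0 to 2.05 CPM. All 6 tested were called lower in KO3 than in KO2 in 2iL. No called gene of any of these lists changed its direction under quantile normalization, TMM scaling or edgeR, though 1 or 2 calls of a list were lost in places.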

How the data were processed

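QuantSeq 3′ mRNA libraries were prepared with the Lexogen kit, per the labels' protocols. The submitters' processing notes name STAR 2.7.6a, featureCounts 2.0.1 of Subread and the build GRCm38. The strand setting and annotation release are not given in the sources used here. The deposited table holds CPM for 55487 Ensembl genes in 41 libraries, and 55141 carry a symbol. Whole reads were recovered for 100% of 766190 values (tolerance 0.01 reads), giving 3424064 to 5736053 reads per library (median 4581394), and 3 reads correspond to 0.523 to 0.876 CPM, which covers counting error only.

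Changes were tested on log2(CPM + 1) with limma 3.58.1 in R 4.3.3, for the 16967 genes that reached 1 CPM in 3 or more libraries, as 12 group means over all libraries with trend and robust moderation (29 residual degrees of freedom). The 17 comparisons were each adjusted over all genes by Benjamini-Hochberg, and called at 0.05 and 1.5-fold. The count test of edgeR 4.0.16 on recovered reads was an alternative. Scripts were tested on simulated data.

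Libraries were grouped by the labelled genotype and treatment, and numbered within a group only to name them. Genes named are the 5 members, the 3 genes most alike to each, other KLF and SP genes of at least 10 CPM in a group or called, and up to 3 called genes of each list with the largest change. The members and lists were chosen with earlier results of these data known. Alternatives were other pseudocounts, filters, scalings, single lines, subtraction of the local median, and leaving out libraries. Positions are from GENCODE for GRCm38 and promoter windows from RefSeq.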

Additional observations from a re-analysis of the deposited data

Results flagged for a closer look

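In 35 groups of 4 libraries, the value of 1 library stood apart from the other 3 by Dixon's test in 2 cases, and chance gives about 1 in 20. Both lay in WT at day 1: the first library for Klf3 (35.5 CPM) and the third for Klf4 (5.98 CPM).

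In 7 cases the change over a step differed between the depleted lines and WT by the limma test of the difference. These were Klf2 (0.90), Klf3 (0.82) and Klf4 (2.98) from 2iL to day 1, Klf4 (1.04) and Klf5 (2.44) from day 1 to day 3, and Klf5 (-0.73) and Klf9 (-0.67) from day 3 to day 5. In 8 cases KO3 differed from KO2, namely Klf2 (-1.0), Klf3 (0.85) and Klf5 (1.47) at day 1, Klf2 (1.01), Klf4 (1.20) and Klf5 (1.10) at day 3, and Klf3 (0.62) and Klf4 (2.07) at day 5, all on the log2 scale.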

How the results depend on the processing

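No paired analysis was possible because the labels give no replicate numbers. Of 225 differences from WT under settings other than leaving out 1 library, 203 kept their direction and side of the threshold, and no called one turned its sign. With KO2 or KO3 alone a called one could not turn, since a call needed the same direction in both lines. The exceptions by line were, with KO2 alone, Klf5 in 2iL (-0.62) and at day 1 (-0.76), called, Klf3 at day 1 (0.20), not called, and Klf4 at day 5 (-0.16), reversed. With KO3 alone, Klf2 in 2iL (-0.25), Klf5 at day 1 (0.71) and Klf9 at day 1 (0.13) reversed, Klf2 at day 1 (0.54) and day 5 (0.69) lost the call, and Klf3 (0.87) and Klf4 (1.91) at day 5 gained it. A pseudocount of 5 CPM cost Klf2 its day 5 call (0.34). Quantile normalization reversed Klf5 (0.02) and Klf9 (0.00) at day 1 and, like TMM (0.62) and edgeR (0.64), called Klf3 at day 5 (0.63). Subtracting the neighbours' median reversed Klf9 in 2iL (-0.03) and Klf5 at day 1 (0.05), cost Klf2 its day 5 call (0.46), and called Klf3 (0.62) and Klf4 (0.99) at day 5. The cause was not tested. Single lines were taken from the same fit over all 41 libraries, with the other depleted line left out of the comparison.

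Leaving out 1 library moved the difference from WT over -0.03 to 0.28 (Klf2) and -0.09 to 0.21 (Klf9) in 2iL, over 0.54 to 0.71 (Klf3), -0.12 to 0.09 (Klf5) and -0.10 to 0.01 (Klf9) at day 1, and over 0.47 to 0.66 (Klf3) and 0.74 to 1.00 (Klf4) at day 5. Where KO3 then held 1 library, it was assumed to vary like the other groups.

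Among uncalled steps and line contrasts, signs turned as follows. In depleted steps from day 1 to day 3 these were Klf2 with KO3 alone (0.04), and Klf3 (0.10) and Klf4 (-0.16) with KO2 alone. From day 3 to day 5 they were Klf3 (-0.14) and Klf4 (-0.43) with KO2 alone, Klf5 with KO3 alone (-0.04), and Klf4 under a pseudocount of 0.5 CPM (-0.01), quantile (-0.02), TMM (-0.00), edgeR (-0.04) and position centring (-0.03). Leaving out 1 library, these ran over -0.02 to 0.17 (Klf3) and -0.12 to 0.14 (Klf4). In differences of steps they were Klf5 with KO2 alone (-0.14) and Klf9 with KO3 alone (0.02; -0.25 to 0.05 leaving out 1 library) from 2iL to day 1. From day 1 to day 3 they were Klf2 with a pseudocount of 5 CPM (-0.06) and KO2 alone (-0.80; -0.02 to 0.35 leaving out 1 library), and Klf3 with KO3 alone (-0.23; -0.03 to 0.23 leaving out 1 library). From day 3 to day 5 they were Klf2 with KO2 alone (0.05) and Klf3 with KO3 alone (0.06). For KO3 against KO2, Klf9 turned under position centring at day 5 (0.09), and leaving out 1 library gave -0.02 to 0.13 in 2iL, -0.09 to 0.17 at day 3 and -0.08 to 0.03 at day 5 for Klf9, and -0.29 to 0.06 at day 5 for Klf2. Depth limits Klf2 and Klf4 in AloXR, at as few as 4 and 5 reads in a library.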
